A study of Mus musculus with 17 samples.

Results

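The cyclins, cyclin-dependent kinases and the transcription factor gene Foxm1 described here are 10 genes, Ccnd1, Ccnd2, Ccne1, Ccne2, Cdk2, Ccna2, Ccnb1, Ccnb2, Cdk1 and Foxm1, taken by symbol from the 55536 genes of the deposited tables. All 10 were among the 14393 genes that passed the filter on low counts. Cyclins are regulatory subunits that switch on cyclin-dependent kinases (Cdks) at set points of the cell cycle. D-type cyclins act in G1, E-type cyclins with Cdk2 act at the entry into S phase, cyclin A acts in S phase and G2, and B-type cyclins with Cdk1 drive mitosis. Foxm1 is a transcription factor of G2 and mitosis, and hepatocytes of the adult liver are mostly quiescent but can re-enter the cycle. Ccnd1, Ccnd2, Ccne1, Ccne2 and Cdk2 are treated below as the G1 genes, and Ccna2, Ccnb1, Ccnb2, Cdk1 and Foxm1 as the S/G2/M genes. By RefSeq (GRCm38.p6) the G1 genes are Ccnd1 at chr7:144929931-144939831, Ccnd2 at chr6:127125162-127152188, Ccne1 at chr7:38097984-38107490, Ccne2 at chr4:11190433-11204779 and Cdk2 at chr10:128697938-128705051. The S/G2/M genes are Ccna2 at chr3:36564865-36573038, Ccnb1 at chr13:100778739-100786486, Ccnb2 at chr9:70407689-70421554, Cdk1 at chr10:69335146-69352912 and Foxm1 at chr6:128362994-128375886. Counts cover whole genes, with no split by exon or isoform.

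Hepatocytes had been isolated with collagenase from livers of C57BL/6J mice of the ApcDHep genotype, aged 3 months, and their RNA was sequenced. In the WRE-edited group (DLK1DWRE, 6 libraries) SaCas9 delivered by AAV8 for 1 month was directed at a site that β-catenin binds, which lies ahead of the DLK1/DIO3 locus, and in the Rosa26-edited group (ROSA26, 5 libraries) it was directed at Rosa26, a locus commonly used as a neutral target. Both groups carried the ApcDHep genotype, AAV8, SaCas9 and tamoxifen (2 mg, 7 days), so no library came from hepatocytes with intact Apc or without a nuclease, and no source used here names the driver of the Apc deletion. By the endings of their names the libraries fall into 3 sets, called runs here, and what the endings stand for is not stated. They are r770 (WRE-edited 1 to 3 and Rosa26-edited 1 to 3) and r595 (WRE-edited 6, and Rosa26-edited 4 and 5). The last, r711, holds WRE-edited 4 and 5 and no Rosa26-edited library. The labels do not say that the libraries come from separate animals, so p-values measure the spread between libraries. The library names of WRE-edited 4 and WRE-edited 6 hold the same number, and whether both come from 1 mouse is not stated.

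Libraries held 20727036 to 38935135 expected counts. Mitochondrial ribosomal RNA took 2.29% to 3.0% of them in r595 and 19.02% to 29.09% in the other runs. Rian, a non-coding RNA of the DLK1/DIO3 locus, had 48.7 to 113 CPM (read counts scaled to library size) in the WRE-edited libraries and 171 to 405 CPM in the Rosa26-edited libraries. Its log2 fold change was -2.30 ± 0.26 (SE; edgeR adjusted p = 0.0188), and it was the 1 gene called in the whole comparison. Meg3, another non-coding RNA of that locus, had -2.23 ± 0.45 (edgeR adjusted p = 0.266). Apc had 26.6 to 60.7 CPM in WRE-edited libraries against 32.3 to 55.0 CPM in Rosa26-edited libraries, and gene totals do not check a deletion of part of a gene. The 6 hepatocyte markers summed to 38300 to 49100 CPM in the WRE-edited libraries and 39000 to 49700 CPM in the Rosa26-edited libraries.

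The 5 S/G2/M genes had a lower mean log2 CPM in WRE-edited hepatocytes in both runs that held both groups. In r595, with 1 WRE-edited library, 4 of 5 G1 genes also lay below the Rosa26-edited libraries, as did 34.4% of all genes tested. Ccne2 did so in r770 too, as did 4.34% of all genes tested. The levels of Ccnd1 were nearly the same in both groups. The fitted log2 fold changes (WRE-edited over Rosa26-edited, run fitted as a term) of the 5 S/G2/M genes lay between -1.40 and -0.82 with a median of -1.31, and those of the 5 G1 genes lay between -0.80 and -0.07 with a median of -0.25. The median over all 14393 genes was 0.01. The S/G2/M median depends on how the runs are treated: it was -0.34 without the run term and -0.33 with a replicate block in its place. Each of these had 2 of 5 genes lower at edgeR's unadjusted p under 0.05. Over all 14393 genes 372 and 406 were lower at that level, against 740 with the run term. Without WRE-edited 6 the S/G2/M median was -0.87. The 2 WRE-edited libraries of r711 had S/G2/M levels within or above the range of the Rosa26-edited libraries, and with no Rosa26-edited library in that run the part of the run and of the edit cannot be told apart there. In bulk RNA, fewer cycling cells and less of these RNAs per cycling cell cannot be told apart either.

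With edgeR's quasi-likelihood test and Benjamini-Hochberg adjustment at 0.05, 0 of the 10 genes were called, where 0.00695% of all genes tested were called. At an unadjusted p under 0.05, 5 of 5 S/G2/M genes and 1 of 5 G1 genes (Ccne2) were lower and 0 of 10 were higher. Over all genes tested, 5.14% were lower and 4.95% higher. The members were chosen with earlier results of these data known, so these counts are descriptions. The other S/G2/M genes correlated with Ccnb1 over the libraries (Pearson r of 0.70 to 0.93), so the 5 are not separate results. DESeq2, run as an alternative on the same genes, called Ccna2, Ccnb1 and Cdk1 lower at an adjusted p of 0.05, where it called 0.477% of its genes lower and 0.123% higher. All 10 fold changes were negative, as were 48.3% of those over all genes.

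**Figure D1:**
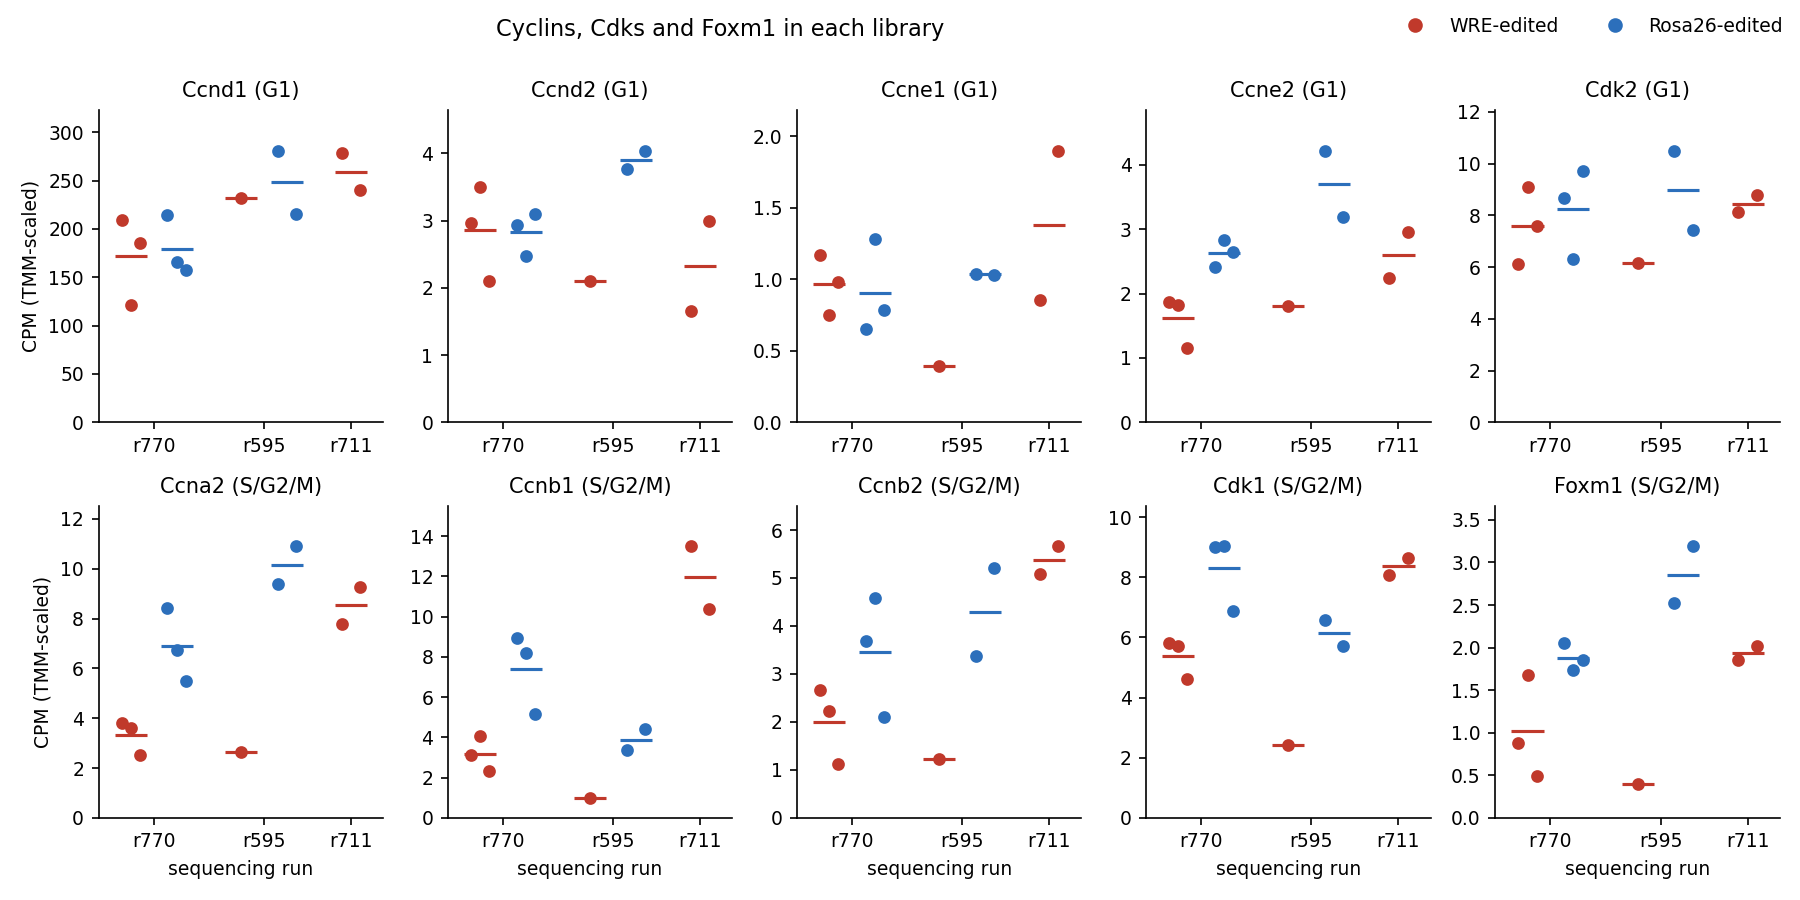
Levels of the 10 genes in each library, in TMM-scaled CPM (linear axis from 0), by run as read from the library names. WRE-edited libraries are in red and Rosa26-edited libraries in blue. Points are libraries and bars are means of a group within a run. The axis reads sequencing run, which the labels do not state. In r770 and r595 the red points of Ccna2, Ccnb1, Cdk1 and Foxm1 all lie below the blue points of the same run. In r711 there are no blue points to set the red points against.

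Ccnd1, the cyclin that carries cells through G1 and that is induced when liver regenerates, was the most abundant member. It had 209, 121 and 185 CPM in WRE-edited libraries of r770, against 214, 166 and 158 CPM in the Rosa26-edited libraries of that run. In r595 it had 232 CPM in WRE-edited 6, against 281 and 216 CPM in the Rosa26-edited libraries, and the r711 libraries had 279 and 240 CPM. The groups overlapped in both runs, and the log2 fold change was -0.07 ± 0.17 (SE; edgeR adjusted p = 0.888). The direction of Ccnd1 was not stable over alternatives, which ran from -0.18 to 0.06.

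Ccnd2, a second D-type cyclin, stood at 2.96, 3.50 and 2.10 CPM in WRE-edited libraries of r770, against 2.94, 2.47 and 3.10 CPM in Rosa26-edited libraries. WRE-edited 6 had 2.10 CPM, against 3.77 and 4.04 CPM in the Rosa26-edited libraries of r595, and the r711 libraries had 1.66 and 2.99 CPM. In CPM the groups thus overlapped in r770 and were apart in r595. In the deposited normalized matrix the difference was 0.26 within r770 and 0.23 within r595, the other direction from the -0.87 of log2 CPM within r595. The log2 fold change was -0.25 ± 0.26 (edgeR adjusted p = 0.744), and it was 0.27 with RSEM's effective lengths as offsets, so that its direction depends on how length enters.

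Ccne1 and Ccne2 encode the E-type cyclins that activate Cdk2 before S phase. Ccne1 had 9 to 47 expected counts per library, with 1.17, 0.752 and 0.982 CPM in WRE-edited libraries of r770 against 0.654, 1.28 and 0.785 CPM in Rosa26-edited libraries. It had 0.395 CPM in WRE-edited 6 against 1.04 and 1.03 CPM in Rosa26-edited libraries, and 0.856 and 1.90 CPM in r711. Its log2 fold change was -0.29 ± 0.42 (edgeR adjusted p = 0.814), with 0.12 within r770 and -1.24 within r595. Ccne2 was the G1 gene with the largest difference. It had 1.87, 1.82 and 1.16 CPM in WRE-edited libraries of r770, against 2.41, 2.84 and 2.64 CPM in the Rosa26-edited libraries. WRE-edited 6 had 1.80 CPM against 4.22 and 3.19 CPM in Rosa26-edited libraries, and the r711 libraries had 2.24 and 2.95 CPM. In CPM no WRE-edited library overlapped a Rosa26-edited library of its own run. In TPM, WRE-edited 2 had 0.78 TPM, above the Rosa26-edited libraries of r770 at 0.53, 0.59 and 0.69 TPM. The log2 fold change of Ccne2 was -0.80 ± 0.23 (1.74-fold lower; unadjusted p = 0.00448, edgeR adjusted p = 0.384), and with effective lengths as offsets it was -0.45 (unadjusted p = 0.141). In the deposited normalized matrix the difference within r770 was -0.21, against -0.71 in log2 CPM.

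Cdk2, the kinase partner of cyclins E and A, had 6.11, 9.11 and 7.57 CPM in WRE-edited libraries of r770, against 8.69, 6.31 and 9.70 CPM in the Rosa26-edited libraries. WRE-edited 6 had 6.14 CPM against 10.5 and 7.45 CPM in Rosa26-edited libraries, and the r711 libraries had 8.13 and 8.77 CPM. The groups overlapped in r770, and the log2 fold change was -0.24 ± 0.19 (edgeR adjusted p = 0.658).

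Ccna2, the cyclin of S phase and G2, had 3.81, 3.62 and 2.52 CPM in WRE-edited libraries of r770, against 8.42, 6.74 and 5.49 CPM in the Rosa26-edited libraries. In r595 it had 2.63 CPM in WRE-edited 6, against 9.39 and 10.9 CPM in Rosa26-edited libraries. The WRE-edited libraries of both runs lay below every Rosa26-edited library, while those of r711, at 7.80 and 9.25 CPM, lay among them. The log2 fold change was -1.31 ± 0.22 (2.47-fold lower; unadjusted p = 5.9e-05, edgeR adjusted p = 0.213; DESeq2 adjusted p = 0.000108). The differences of mean log2 CPM were -1.04 within r770 and -1.92 within r595. Of the 10 genes Ccna2 alone kept an unadjusted p under 0.05 in all 24 alternatives, at log2 fold changes from -2.0 to -0.73.

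Ccnb1 encodes the main cyclin of mitosis. In r770 it had 3.11, 4.05 and 2.35 CPM in WRE-edited libraries, against 8.92, 8.21 and 5.14 CPM in Rosa26-edited libraries. In r595 it had 1.01 CPM in WRE-edited 6, from 23 expected counts, against 3.37 and 4.41 CPM in Rosa26-edited libraries. The r711 libraries were the highest of all 11, at 13.5 and 10.4 CPM. WRE-edited 4 thus had 13.4 times the CPM of WRE-edited 6, the library whose name shares its number. Its log2 fold change was -1.40 ± 0.24 (2.63-fold lower; unadjusted p = 7.9e-05, edgeR adjusted p = 0.213; DESeq2 adjusted p = 0.000236), with -1.20 within r770 and -1.86 within r595. Without the run term, which lets the r711 libraries into the effect, it was -0.07. Its pseudogene Ccnb1-ps had at most 8.41 expected counts in a library, and counts of Ccnb1 were off a whole number by more than 0.005 in 8 of 11 libraries. Counts of Ccnd1, Ccne2 and Ccna2 were so in 11 of 11, and the source of the fractions was not tested.

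Ccnb2, the other B-type cyclin of mitosis, had 2.67, 2.23 and 1.12 CPM in WRE-edited libraries of r770, against 3.69, 4.58 and 2.10 CPM in the Rosa26-edited libraries. WRE-edited 6 had 1.23 CPM against 3.37 and 5.21 CPM in Rosa26-edited libraries, and the r711 libraries had 5.09 and 5.66 CPM. It was the S/G2/M gene whose groups overlapped in r770, where Rosa26-edited 3 lay below WRE-edited 1 and 2. The log2 fold change was -1.06 ± 0.33 (2.08-fold lower; unadjusted p = 0.0071, edgeR adjusted p = 0.414; DESeq2 adjusted p = 0.113). Without the run term it was -0.34 (unadjusted p = 0.41), with r770 only -0.77 (unadjusted p = 0.0744), without WRE-edited 6 -0.79 (unadjusted p = 0.0514) and without WRE-edited 3 and 6 -0.50 (unadjusted p = 0.172). Ccnb2-ps, its pseudogene, had 1 to 18 expected counts, and the counts of Ccnb2 were whole within 0.005 in all 11 libraries.

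Cdk1, the mitotic kinase that binds cyclins A and B, had 5.82, 5.70 and 4.63 CPM in WRE-edited libraries of r770, against 9.01, 9.03 and 6.89 CPM in the Rosa26-edited libraries. It had 2.41 CPM in WRE-edited 6 against 6.58 and 5.73 CPM in Rosa26-edited libraries, and 8.09 and 8.64 CPM in r711. The groups were apart in both runs. Its log2 fold change was -0.82 ± 0.18 (1.77-fold lower; unadjusted p = 0.000567, edgeR adjusted p = 0.266; DESeq2 adjusted p = 0.0123). Without the run term it was -0.34 (unadjusted p = 0.222), and with a replicate block in its place it was -0.20 (unadjusted p = 0.418).

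Foxm1, whose product switches on B-type cyclins and other mitotic genes, had 0.878, 1.68 and 0.491 CPM in WRE-edited libraries of r770, against 2.05, 1.74 and 1.86 CPM in the Rosa26-edited libraries. In r595 it had 0.395 CPM in WRE-edited 6, from 9 expected counts, against 2.52 and 3.19 CPM in Rosa26-edited libraries, and the r711 libraries had 1.86 and 2.02 CPM. The groups were apart in both runs, but in r770 WRE-edited 2 lay close to the lowest Rosa26-edited library. In TPM, which divides by effective length, WRE-edited 2 had 0.83 TPM, above the Rosa26-edited libraries of r770 at 0.50, 0.47 and 0.64 TPM, so there the groups overlapped. The log2 fold change was -1.35 ± 0.42 (2.54-fold lower; unadjusted p = 0.00749, edgeR adjusted p = 0.414; DESeq2 adjusted p = 0.0922), and without WRE-edited 3 and 6 it was -0.54 (unadjusted p = 0.15). With effective lengths as offsets it was -1.25 ± 0.65 (unadjusted p = 0.0784), and with r770 only it was -0.86 (unadjusted p = 0.0785).

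**Figure D2:**
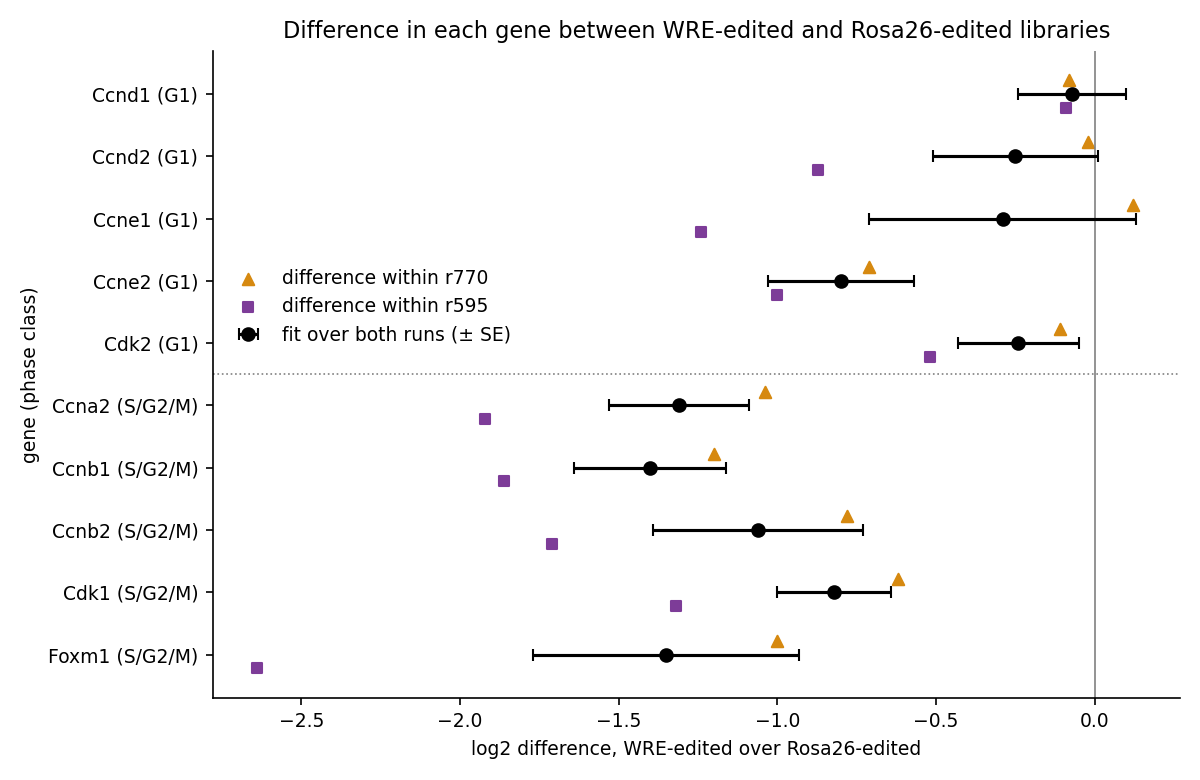
Log2 differences of WRE-edited over Rosa26-edited libraries for the 10 genes, G1 genes above the dotted line and S/G2/M genes under it. Black circles with bars are fitted log2 fold changes ± SE with the run as a term, triangles are differences of mean log2 CPM within r770 (3 libraries against 3) and squares those within r595 (1 against 2). Each S/G2/M gene lies left of 0 in both runs, and the G1 genes other than Ccne2 lie between -0.11 and 0.12 in r770.

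Within r770, the run with 3 libraries of each group, all WRE-edited libraries lay below all Rosa26-edited libraries for 4 of 5 S/G2/M genes and 1 of 5 G1 genes, where 4.34% of all genes tested did. Within r595, with 1 WRE-edited library, 5 of 5 S/G2/M genes and 4 of 5 G1 genes did, where 34.4% of all genes did. Both held for Ccna2, Ccnb1, Cdk1, Foxm1 and Ccne2, against 2.43% of all genes. The median difference of the S/G2/M genes was -1.0 within r770 and -1.86 within r595, and that of the G1 genes was -0.08 within r770 and -0.87 within r595. Over all genes the median was 0.00 within r770 and 0.04 within r595. Without WRE-edited 6 the fit rests on r770 alone, and the medians were -0.87 for the S/G2/M genes and -0.06 for the G1 genes.

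The effect in r595 was set against that in r770 as an interaction in edgeR. All 10 genes had a more negative effect in r595, by -0.04 ± 0.40 (SE) for Ccnd1 to -1.97 ± 0.85 for Foxm1 on the log2 scale, where 48.5% of all genes did and the median over all genes was 0.02. Foxm1 alone had an unadjusted p under 0.05 (0.0421, edgeR adjusted p = 0.756), where 4.38% of 14582 genes were more negative in r595 at that level, and 0 genes of the whole table were called. The interaction of Ccnb1 was -0.72 ± 0.57, and that of Ccna2 was -0.89 ± 0.44. In the deposited normalized matrix Ccnb1, alone of the 10, was less negative in r595, at -0.99 against -1.23 within r770. With 1 WRE-edited library in r595, the absence of a call does not show that the runs were alike.

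The mean log2 CPM of the 5 S/G2/M genes was 1.51, 1.69 and 0.86 in WRE-edited libraries of r770, against 2.49, 2.42 and 1.94 in Rosa26-edited libraries. It was 0.43 in WRE-edited 6 against 2.18 and 2.45 in the Rosa26-edited libraries of r595, and 2.62 and 2.66 in the r711 libraries. The lowest level of each S/G2/M gene over all libraries fell to WRE-edited 6 (3 genes) or WRE-edited 3 (2 genes). The mean of the 5 G1 genes was 2.64, 2.52 and 2.39 in WRE-edited libraries of r770 against 2.66, 2.67 and 2.69 in Rosa26-edited libraries, and it was 2.28 in WRE-edited 6 against 3.14 and 2.91 in the Rosa26-edited libraries of r595. It was 2.61 and 3.05 in r711. Outside r595 the share of mitochondrial ribosomal RNA and the S/G2/M mean split the libraries in the same way. WRE-edited 4 and 5 and Rosa26-edited 1 and 2 had shares of 26.84% to 29.09% and S/G2/M means of 2.42 to 2.66. WRE-edited 1 to 3 and Rosa26-edited 3 had shares of 19.02% to 23.26% and means of 0.86 to 1.94. Among these the order was not kept: WRE-edited 2 (19.02%) and Rosa26-edited 3 (19.17%) had means of 1.69 and 1.94. WRE-edited 3 (21.42%) and WRE-edited 1 (23.26%) had 0.86 and 1.51. The part of mitochondrial ribosomal RNA in these levels was not tested. The S/G2/M mean minus the G1 mean was -1.13, -0.83 and -1.53 in WRE-edited libraries of r770, against -0.18, -0.26 and -0.75 in the Rosa26-edited libraries, and -1.86 in WRE-edited 6 against -0.96 and -0.46 in Rosa26-edited 4 and 5.

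**Figure D3:**
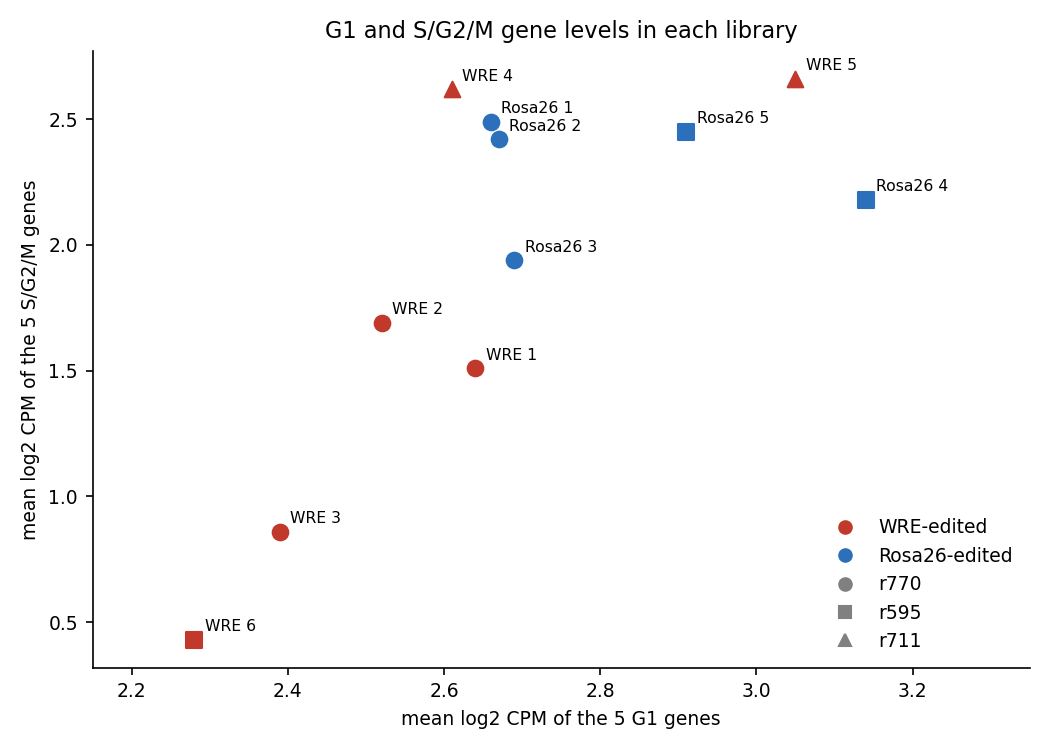
Mean log2 CPM of the 5 G1 genes (horizontal axis) against that of the 5 S/G2/M genes (vertical axis), 1 point per library, with WRE-edited libraries in red, Rosa26-edited libraries in blue and the run given by the symbol. WRE-edited 1, 2, 3 and 6 lie at 1.69 or lower on the vertical axis, the Rosa26-edited libraries between 1.94 and 2.49, and the r711 libraries at 2.62 and 2.66.

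Levels of different genes were compared per length, as TPM (RSEM's length-scaled transcript abundance). Over the 11 libraries Ccnd1 averaged 43.7 ± 17.0 TPM (SD), Cdk1 6.38 ± 2.59, Cdk2 2.79 ± 0.747, Ccnb1 2.45 ± 1.98, Ccna2 2.08 ± 1.23, Ccnb2 1.77 ± 1.03, Ccne2 1.22 ± 0.911, Ccne1 0.605 ± 0.335, Foxm1 0.539 ± 0.356 and Ccnd2 0.459 ± 0.162 TPM. Ccnd1 lay above Cdk1, and Cdk1 above Cdk2, in 11 of 11 libraries. The next neighbours changed places between libraries, with Cdk2 above Ccnb1 in 7 of 11 and Ccnb1 above Ccna2 in 8 of 11. Ccnd1 made up 82.6% to 91.4% of the summed TPM of the 7 cyclins in WRE-edited libraries of r770, against 77.9% to 84.1% in the Rosa26-edited libraries, and 91.3% in WRE-edited 6 against 86.0% and 79.7% in Rosa26-edited 4 and 5. Its share was 82.0% and 78.4% in r711.

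Promoter windows of 5 of the 10 genes were found in RefSeq (GRCm38.p6), each covering 250 bases before to 50 bases after the annotated start. They belong to 3 S/G2/M genes (Ccnb1, Ccnb2 and Cdk1) and 2 G1 genes (Ccne1 and Cdk2), and those of Ccnd1, Ccnd2, Ccne2, Ccna2 and Foxm1 were not used here. B-type cyclin and Cdk1 promoters are known for CCAAT boxes, bound by NF-Y, and for the cell cycle genes homology region (CHR), bound by the MuvB complex. The windows were searched on both strands for CCAAT and for the CHR letters TTTGAA or TTCGAA. The part from 110 bases before the start to base 20 after it is shown, because it carries most of the matches, read 5′ to 3′ on the strand of the gene, with matches in capitals (a CCAAT box on the other strand reads ATTGG).
Ccnb1, chr13:100786467-100786596, minus strand: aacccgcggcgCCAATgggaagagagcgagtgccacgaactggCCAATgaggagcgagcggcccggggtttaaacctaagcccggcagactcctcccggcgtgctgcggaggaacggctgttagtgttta
Ccnb2, chr9:70421535-70421664, minus strand: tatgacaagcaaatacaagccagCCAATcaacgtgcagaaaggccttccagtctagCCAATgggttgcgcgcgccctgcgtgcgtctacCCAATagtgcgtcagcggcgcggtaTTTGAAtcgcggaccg
Cdk1, chr10:69352893-69353022, minus strand: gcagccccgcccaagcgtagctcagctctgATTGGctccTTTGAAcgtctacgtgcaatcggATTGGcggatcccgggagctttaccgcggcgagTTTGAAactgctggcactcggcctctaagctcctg
Cdk2, chr10:128705032-128705161, minus strand: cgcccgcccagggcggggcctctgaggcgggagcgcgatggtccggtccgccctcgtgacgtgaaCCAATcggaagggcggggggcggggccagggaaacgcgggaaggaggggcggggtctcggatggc
Ccne1, chr7:38107471-38107600, minus strand: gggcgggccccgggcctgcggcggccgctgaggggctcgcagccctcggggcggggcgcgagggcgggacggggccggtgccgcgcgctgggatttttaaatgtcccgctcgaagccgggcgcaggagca

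Over the whole windows Ccnb1 held 2 CCAAT matches, Ccnb2 held 3 and Cdk1 held 3, while Cdk2 held 1 and Ccne1 held 0. Of 32851 RefSeq promoter windows of the same length, 37.4% held at least 1 CCAAT match and 11.7% held 2 or more. Ccnb2 and Cdk1 held 2 CHR matches each, all TTTGAA, and the other 3 windows held 0, where 19.2% of all windows held at least 1. The count gave 2 or more for 3.84% of all windows. That share is too high, because TTCGAA reads the same on both strands and 1 such site was counted as 2. The CHR match of Ccnb2 shown lies at bases 5 to 10 after the start, and those of Cdk1 lie at -71 to -66 and -15 to -10 (negative before the start). Cdk1 and Cdk2 each held 1 match to the E2F letters TTTCCCGC, TTTCGCGC, TTTGCCGC or TTTGGCGC, as did 2.26% of all windows at least once, and both matches lie upstream of the part shown. The TCF letters CTTTGAT or CTTTGAA were found in Cdk1 alone of the 5, as CTTTGAA overlapping its CHR match at -71, and in 8.65% of all windows. These matches describe letters, not bound sites.

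The wider cell cycle control lists held 59 genes, of which 55 were tested. At an unadjusted p under 0.05, 12 of them were lower and 0 were higher, where 5.14% of all genes tested were lower and 4.95% higher, 0 were called by edgeR at an adjusted p of 0.05, and the median log2 fold change was -0.08. Of 7 mitotic genes known as targets of Foxm1, 7 had negative fold changes and 6 were lower at that level, with a median of -0.80. Mki67, a marker of cycling cells, had 31.7, 31.8 and 10 CPM in WRE-edited libraries of r770 against 41.4, 42.0 and 42.5 CPM in the Rosa26-edited libraries, and 10.2 CPM in WRE-edited 6 against 44.0 and 49.1 CPM in Rosa26-edited 4 and 5. In r711 it had 41.2 and 60.8 CPM, so it followed the pattern of the S/G2/M genes over the runs. Its log2 fold change was -1.16 ± 0.36 (edgeR adjusted p = 0.423). Birc5, an inhibitor of apoptosis that also works in the chromosomal passenger complex, had -0.80 ± 0.22 (adjusted p = 0.384), the passenger kinase Aurkb had -0.84 ± 0.27 (adjusted p = 0.427) and the mitotic kinase Plk1 had -0.68 ± 0.26 (adjusted p = 0.441).

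Among factors of cyclin destruction, 2 of 6 were lower at an unadjusted p under 0.05 (all genes tested: 5.14%). Ube2c, the ubiquitin-conjugating enzyme of the anaphase-promoting complex, had 1.43, 1.94 and 0.947 CPM in WRE-edited libraries of r770 against 3.30, 2.68 and 2.64 CPM in the Rosa26-edited libraries, and 1.14 CPM in WRE-edited 6 against 2.29 and 2.57 CPM in Rosa26-edited 4 and 5. Its log2 fold change was -1.02 ± 0.24 (edgeR adjusted p = 0.325), and the r711 libraries had 4.57 and 3.64 CPM, the highest of all. Cdc20, an activator of the same complex, had -0.95 ± 0.26 (adjusted p = 0.384), Skp2, which marks p27 for destruction, had -0.29 ± 0.25 (adjusted p = 0.691) and the early mitotic inhibitor gene Fbxo5 had -0.32 ± 0.40 (adjusted p = 0.781).

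Regulators of Cdk phosphorylation had 1 of 7 genes lower at an unadjusted p under 0.05 (all genes tested: 5.14%), with a median of -0.32. This was Cdc25c, a phosphatase that activates Cdk1, at -2.09 ± 0.56 (edgeR adjusted p = 0.384), with 0.183, 0.347 and 0.0701 CPM in WRE-edited libraries of r770 against 0.892, 0.549 and 0.642 CPM in the Rosa26-edited libraries. WRE-edited 6 had 0.0438 CPM against 0.407 and 0.881 CPM in Rosa26-edited 4 and 5, and r711 had 0.856 and 1.25 CPM. Cdc25a, its relative that acts at the start of S phase, had 0.46 ± 0.21 (edgeR unadjusted p = 0.0506, adjusted p = 0.495). It had 2.45, 2.66 and 3.16 CPM in WRE-edited libraries of r770 against 1.49, 1.71 and 2.18 CPM in the Rosa26-edited libraries. WRE-edited 6 had 3.86 CPM against 3.70 and 3.56 CPM in Rosa26-edited 4 and 5. The WRE-edited libraries of Cdc25a thus lay higher in both runs, as for 271 of 14393 genes tested. Wee1, the kinase that restrains Cdk1, had -0.65 ± 0.34 (adjusted p = 0.531), and Cdc25b had -0.63 ± 0.49 (adjusted p = 0.656).

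Of the Rb and E2F list, 1 of 13 was lower at an unadjusted p under 0.05 (all genes tested: 5.14%), and the median was 0.06. Rbl1, the Rb relative p107, had -0.72 ± 0.18 (edgeR adjusted p = 0.335), at 5.56, 4.22 and 4.00 CPM in WRE-edited libraries of r770 against 6.34, 6.92 and 6.49 CPM in the Rosa26-edited libraries. Rb1 itself had -0.31 ± 0.16 (adjusted p = 0.526), the activator E2f2 had -0.43 ± 0.24 (adjusted p = 0.543) and the repressor E2f6 had 0.25 ± 0.13 (adjusted p = 0.531). The MuvB and Foxm1 partner list had 0 of 5 tested genes at that level, with Rbbp4 at 0.12 ± 0.12, Lin37 at 0.18 ± 0.21, Lin52 at 0.16 ± 0.18 and Lin9 at -0.08 ± 0.27, and Mybl2 was below the filter.

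Among other cyclins and Cdks, 1 of 11 was lower at an unadjusted p under 0.05 (all genes tested: 5.14%), and the median was -0.05. This was Ccnc, the cyclin of the Mediator kinase module, at -0.61 ± 0.17 (edgeR adjusted p = 0.384). The Cdk-activating kinase genes Mnat1 and Ccnh had -0.37 ± 0.20 (adjusted p = 0.534) and -0.19 ± 0.16 (adjusted p = 0.682), and Ccng2, a cyclin found in arrested cells, had 0.16 ± 0.21 (adjusted p = 0.797). Of the Cdk inhibitor list, 1 of 6 tested genes was lower at that level and the median was 0.04. The 1 was Cdkn3, a phosphatase of Cdks that is itself high in cycling cells, at -1.26 ± 0.53 (adjusted p = 0.461). Cdkn1a, the p53 target p21, had 0.30 ± 0.18 (adjusted p = 0.569), Cdkn2d (p19) had -0.63 ± 0.33 (adjusted p = 0.528) and Cdkn2c (p18) had 0.12 ± 0.21 (adjusted p = 0.844), while Cdkn2a and Cdkn2b were below the filter.

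**Figure D4:**
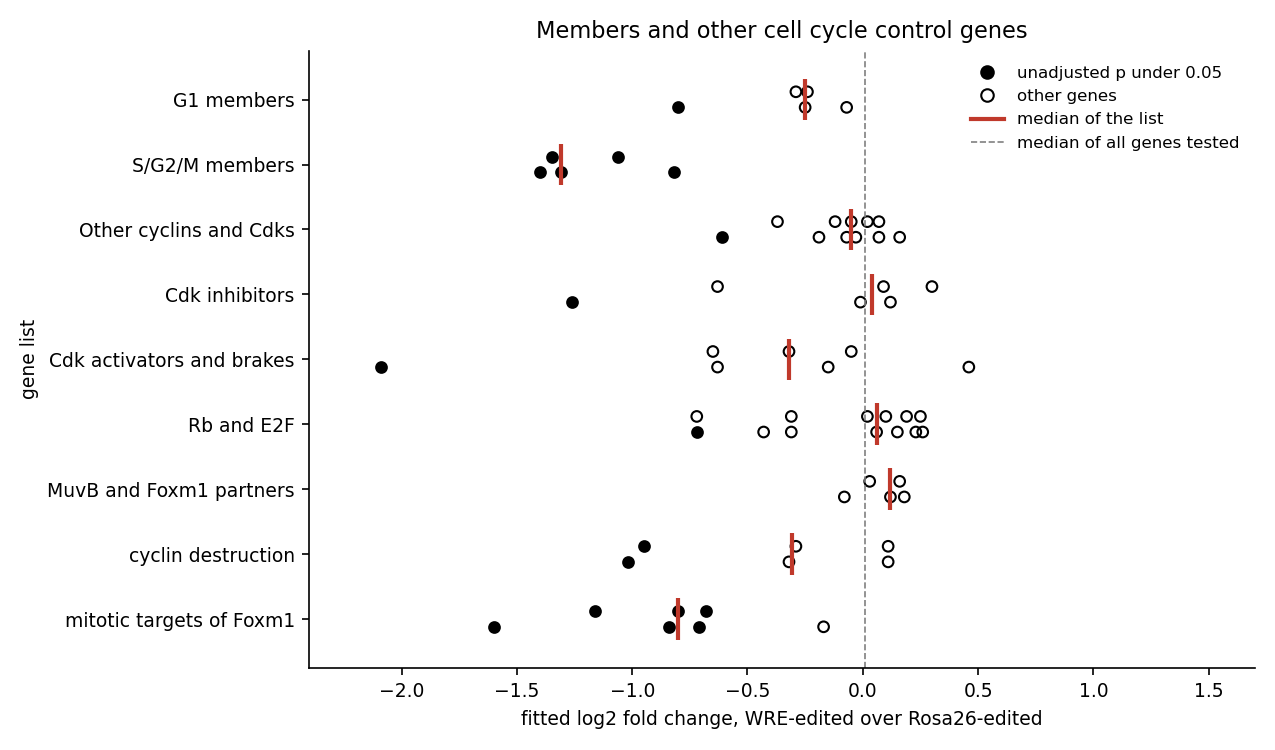
Fitted log2 fold changes (WRE-edited over Rosa26-edited, run fitted as a term) of the G1 and S/G2/M members and of the other cell cycle control lists, 1 circle per tested gene, filled where the unadjusted p is under 0.05. Red bars are list medians and the dashed line is the median of all genes tested, 0.01; the S/G2/M members (median -1.31) and the mitotic targets of Foxm1 (median -0.80) lie farthest to the left.

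The genes whose log2 CPM over the 11 libraries was most like that of Ccnb1, among 12227 genes with a mean of at least 1 CPM, were Cdc20 (Pearson r of 0.97), Wwp1 (0.95), Ckap2 (0.95) and Fam126b (0.95). Of the other members, Cdk1 had 0.93 with Ccnb1, Ccnb2 0.82, Ccna2 0.71 and Foxm1 0.70, while Ccne1 had 0.52, Ccne2 0.41, Cdk2 0.34, Ccnd1 0.10 and Ccnd2 -0.04. The genes most like Ccnd1 were Sulf2 (0.92), Sgms1 (0.90), Agmo (0.87) and Airn (0.86), and of the members Ccna2 was nearest to it (0.43). The libraries share runs, which shift many genes together, so these values are descriptions.

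Markers of other liver cells were present in all groups, and 0 of the markers listed had no counts over the 11 libraries. Those of stellate cells and fibroblasts summed to 24.0 to 62.6 CPM in WRE-edited libraries and 29.6 to 78.6 CPM in Rosa26-edited libraries. All 8 were tested, with a median log2 fold change of -0.58, and 2 were lower at an unadjusted p under 0.05 (all genes tested: 5.14%). Their sum was lowest in WRE-edited 6 (24.0 CPM) and WRE-edited 3 (25.5 CPM), which were also lowest in the S/G2/M genes, while Rosa26-edited 3 and 4 had 29.6 and 30.2 CPM. Macrophage markers summed to 325 to 427 CPM in WRE-edited libraries and 296 to 1030 CPM in Rosa26-edited libraries, and endothelial markers to 102 to 162 CPM in WRE-edited libraries and 105 to 167 CPM in Rosa26-edited libraries. Lymphocyte markers, 2 of 6 tested, summed to 14.4 to 24.8 CPM in WRE-edited libraries and 16.6 to 41.3 CPM in Rosa26-edited libraries. Cholangiocyte markers (1 of 4 tested) summed to 3.64 to 11.8 CPM in WRE-edited libraries and 5.81 to 23.5 CPM in Rosa26-edited libraries, and neutrophil markers (2 of 4 tested) to 2.85 to 5.29 CPM in WRE-edited libraries and 2.43 to 17.4 CPM in Rosa26-edited libraries. Erythroid markers (3 of 4 tested, 2 lower and 1 higher at an unadjusted p under 0.05) summed to 7.47 to 10.5 CPM in WRE-edited libraries and 6.48 to 22.8 CPM in Rosa26-edited libraries. Median log2 fold changes were also negative for macrophage (-0.42), endothelial (-0.23), lymphocyte (-0.51), cholangiocyte (-1.02), neutrophil (-0.88) and erythroid markers (-1.66). That of the hepatocyte markers was 0.03. The part of the other liver cells in the levels of the S/G2/M genes was not tested.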

How the data were processed

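The deposited tables, 1 per library, hold RSEM's expected counts for each Ensembl gene. Per the submitters' processing notes the authors used STAR (2.7.6a), RSEM (1.3.1) and the build GRCm38. The same deposited tables give TPM and effective length (other values, in bases), per the file headers. Neither the annotation version nor the strand setting is given in these sources. A deposited matrix of normalized signal served as a check, as log2(value + 1), and the notes also list DESeq2 (1.26.0) and R (3.6.3). The miRNA libraries were left out.

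These counts were rounded to integers, filtered with filterByExpr (minimum count 10, minimum total 15), scaled with TMM factors and fitted with the robust quasi-likelihood test of edgeR 4.0.16 in R 4.3.3, two-sided, with run and group as terms and 7 residual degrees of freedom. The effect therefore comes from r770 and r595, and r711 adds to the estimate of the spread. P-values were adjusted over all genes tested by Benjamini and Hochberg, and SEs came from the quasi-likelihood statistic. CPM is TMM-scaled, and log2 CPM uses a prior count of 2. DESeq2 1.42.0, other scalings, filters, designs and left-out libraries were the alternatives. On simulated counts with known changes, DESeq2 called unchanged genes more often than its threshold allows, and edgeR close to it. Those counts used edgeR's own dispersions and held no differences between runs. They therefore do not settle how either method behaves on the deposited counts.

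The members and gene lists were chosen with earlier results of these data known. Genes named were all members, up to 4 of each control list by smallest p, the 4 genes most like Ccnb1 and Ccnd1, and Rian, Meg3 and Apc. Of 55536 gene identifiers 55450 had a symbol. Promoters and coordinates came from RefSeq, GRCm38.p6. Counts of libraries of a group differed far beyond sampling noise in every pair.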

Additional observations from a re-analysis of the deposited data

How the results depend on the processing

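Over 24 alternatives for each gene, Ccne2, Cdk2 and the 5 S/G2/M genes kept negative fold changes in all of them. Ccnd1 changed sign without the run term (0.03), Ccnd2 with r770 only (0.02), with effective lengths as offsets (0.27) and without WRE-edited 3 and 6 (0.19), and Ccne1 without the run term (0.08), with r770 only (0.10), without WRE-edited 3 and 6 (0.07), after summing WRE-edited 4 with 6, run term dropped (0.16), and with a replicate block (0.12 with the run term and 0.20 without it). Leaving out 1 library at a time gave -0.18 to 0.06 for Ccnd1, -0.41 to 0.01 for Ccnd2 and -0.49 to 0.09 for Ccne1.

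The median of the S/G2/M genes (-1.31) was -0.34 without the run term, -0.33 with a replicate block in place of the run, -0.37 after summing WRE-edited 4 with 6 and also dropping the run term, -0.86 with r770 only, -1.99 with r595 only and -0.54 without WRE-edited 3 and 6, an alternative chosen after seeing the data, and it was -1.43 to -0.87 with 1 library left out. In the same alternatives 2, 2, 2, 3, 5 and 3 of the 5 were lower at an unadjusted p under 0.05. The median of the G1 genes (-0.25) was -0.08 with a replicate block and the run term and -0.05 with r770 only. It was -0.94 with r595 only and -0.36 to -0.06 with 1 library left out. At that level 0 G1 genes were lower with effective lengths as offsets, where 658 of 14393 genes tested were. Without WRE-edited 3 and 6, 0 G1 genes were lower as well. In the deposited normalized matrix the medians within r595 were -0.56 for the G1 genes and -1.48 for the S/G2/M genes. The cause of these differences was not tested.

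Over all genes, 1 was called, against 450 without a filter, 83 by DESeq2, 2 with a replicate block and the run term, 0 without the run term, with r770 only, without the r711 libraries and without WRE-edited 3 and 6, and 0 to 2 with 1 library left out. Without a filter all 5 S/G2/M genes were called by edgeR (adjusted p from 4.67e-07 for Ccnb1 to 0.0268 for Foxm1). The main fit did not pair libraries by replicate number. In r770, log2 CPM less the mean of its group correlated at 0.087, -0.246 and -0.097 between same-numbered libraries. With 3 libraries per group, these values cannot show whether the numbers pair the libraries. Counts under 10 in WRE-edited 6 limit Ccne1 and Foxm1.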
